A study of Mus musculus with 12 samples.

Results

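Axon guidance ligands and receptors were examined in the cortex and cerebellum of SCA1 KI mice, a knock-in model of spinocerebellar ataxia type 1, and of their WT littermates. The members were the genes whose symbols name a semaphorin of class 3 to 7, a plexin, an ephrin, an Eph receptor, a Slit, a Robo, a netrin, a netrin G, an Unc5 receptor or Dcc. The 15369 tested genes averaged 10 normalized counts or more over the 12 libraries, and 68 of them were members, 36 of them ligands and 32 receptors. All 68 matching symbols of the 15759 entries passed that minimum. The rule used no measured value other than the mean count, but it was chosen with earlier results of these data known.

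Guidance cues are secreted or membrane-bound proteins that attract or repel growing axons through receptors on the growth cone. Semaphorins signal mainly through plexins, often with neuropilins as co-receptors. Ephrins bind Eph receptor tyrosine kinases on touching cells, Slits bind Robo receptors, and netrins bind Dcc and the Unc5 receptors. In the mature brain many of these genes stay on and take part in synapse formation, dendritic spine remodelling, glial and vascular biology, and several mark cortical layers or cerebellar cell types.

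Each of the 4 groups held 3 libraries of poly-adenylated RNA. SCA1 KI mice were Atxn1 154Q/2Q, with 154 glutamines encoded by the knocked-in allele and 2 by the other, and WT mice lacked the expanded allele. All mice were C57BL/6J and 12 weeks old, the labels give males for the sequencing, and whole cortices or cerebella were dissected by hand and frozen. A knocked-in allele is driven by the gene's own promoter, so every cell type that uses Atxn1 carries the expanded protein. The cerebellar libraries came from an earlier data set of the same laboratory, so brain region and sequencing run cannot be told apart. In whole tissue, fewer cells of a type and less RNA per cell cannot be told apart either. Libraries are named here by the letter (cortex) or number (cerebellum) of their column, which is not the replicate number of the labels. Nothing says whether the libraries of a group came from separate litters or days, so the p-values measure only the spread between these samples.

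Each library held between 29520855 and 51311309 reads on genes. Genes were compared with limma on log2(normalized count + 1), and a gene was called when its adjusted p over all tested genes was under 0.05 and its log2 fold change (LFC) was over 0.25 in absolute size. For Atxn1 itself the LFC was −0.31 in the cortex (adjusted p = 0.132) and 0.08 for the cerebellar libraries (adjusted p = 0.837), which is no check of the repeat length. The 5 markers of cortical excitatory neurons were all higher in the WT cortex and the 5 of granule cells and of Purkinje cells all higher in the WT cerebellum. Among the members, SCA1 KI cortex library A was the lowest of its group for 48 of 68 genes, WT cortex library B the highest for 44 and WT cerebellum library 2 the highest for 39. A summed level of 5 midbrain markers (Pou4f1, Tal1, Gata3, Sox14 and Gata2) ranged from 405.5 to 853 normalized counts in the WT cerebellum against 203 to 242 in the SCA1 KI cerebellum, and 297 to 360.1 in the WT cortex against 941 to 1647 in the SCA1 KI cortex, where library A was the highest. In the cerebellum 4 of the 5 markers passed as lower in SCA1 KI, and in the cortex Pou4f1 and Tal1 passed as higher. Sox14 was at 0 in all WT cortex libraries. The part of these markers in the results was not tested.

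Levels in the WT brain set the frame for the genotype comparisons. Of the 68 members, 36 were higher in the WT cortex (background 31.0% of all tested genes) and 22 were higher in the WT cerebellum (background 30.7%). Together 85.3% of the members passed, against 61.7% of all genes. The libraries of the 2 regions did not overlap for 86.8% of the members and 69.9% of all genes. Robo receptors and Slits were higher in the cortex throughout, with 4 of 4 and 3 of 3 called. Of these, Robo4 was not called without WT cerebellum library 6 or WT cortex library B (adjusted p 0.0511 to 0.0605). The median difference of the members was an LFC of 0.35 toward the cortex, against 0.002 over all tested genes, and it was 0.50 for the receptors and 0.05 for the ligands.

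Sema7a, which encodes a membrane-anchored semaphorin, stood first in both regions on a scale of normalized counts per kb of exon. Its level per kb was 3213 ± 177 (SD, n = 3) in WT cortices and 3137 ± 183 (SD, n = 3) in WT cerebella, and the 2 regions overlapped (LFC 0.03, SE 0.08, adjusted p = 0.700). In the WT cortex the next members per kb were Ephb6, an Eph receptor without kinase activity, at 1386 ± 55.3, the transmembrane semaphorin gene Sema6b at 1380.3 ± 28.6 and Epha4, a receptor for ephrins of both classes, at 1371 ± 113. These 3 cortical levels lay within 1 SD of each other. In the WT cerebellum the next were Efnb3, a ligand of class B, at 905 ± 174, Sema6d at 753 ± 29.0 and Plxnb2, a receptor of class 4 semaphorins, at 743 ± 87.3. The means of Sema6d and Plxnb2 lay within 1 SD of that of Efnb3, whose own libraries were spread widely.

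Among the semaphorins, the widest gap toward the cortex was that of Sema4a (LFC 1.53, adjusted p = 7.05e-07), followed in other classes by Sema6b (LFC 1.25, adjusted p = 2.23e-08), Sema3c (LFC 0.90, adjusted p = 0.000128) and Sema5b (LFC 0.88, adjusted p = 0.00152). Toward the cerebellum it was that of Sema4g (LFC −2.18, adjusted p = 1.59e-08), with Sema6d (LFC −1.44, adjusted p = 1.23e-07) and Sema3b (LFC −1.37, adjusted p = 0.00797) in their classes. Sema4g counted 1077, 791 and 719.5 in WT cortex libraries B, C and D and 3652, 3823 and 4077 in WT cerebellum libraries 2, 4 and 6. Of the plexins, Plxnd1, the receptor of Sema3e, was the farthest toward the cortex (LFC 2.45, adjusted p = 2.67e-09) and Plxnb2 toward the cerebellum (LFC −1.39, adjusted p = 4.00e-08). Among class A plexins these were Plxna2 (LFC 1.23, adjusted p = 2.01e-07) and Plxna3 (LFC −0.58, adjusted p = 0.000657).

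Ephrins and Eph receptors split by member rather than by family. Efna3 (LFC 2.04, adjusted p = 2.19e-08) and Efnb1 (LFC 1.06, adjusted p = 3.88e-05) were higher in the cortex. Efna1 (LFC −0.48, adjusted p = 0.0130) and Efnb3 (LFC −0.39, adjusted p = 0.0456) were higher in the cerebellum. Efna1 was not called without WT cortex library C (adjusted p = 0.0603), and Efnb3 was not called without any of 8 libraries, among them WT cerebellum library 2 (LFC −0.24, adjusted p = 0.195). Of the receptors, Epha4 (LFC 2.76, adjusted p = 9.13e-11) and Ephb3 (LFC 2.78, adjusted p = 6.21e-09) led toward the cortex. Epha8, an EphA receptor, led toward the cerebellum, with 1819, 1951 and 2394 normalized counts in WT cerebellum libraries 2, 4 and 6 against 227, 236 and 395 in WT cortex libraries B, C and D (LFC −2.88, adjusted p = 1.94e-08). Ephb2 was also higher there (LFC −1.22, adjusted p = 1.83e-06).

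Netrins and their receptors also lay on both sides. Ntn1, the founding netrin, counted 3418, 3287 and 3582 in WT cerebellum libraries 2, 4 and 6 and 481, 422 and 388 in WT cortex libraries B, C and D (LFC −2.996, adjusted p = 7.77e-09). Unc5b, a repulsive netrin receptor, was higher in the cerebellum as well (LFC −2.44, adjusted p = 2.90e-07), while its relative Unc5a was higher in the cortex (LFC 1.83, adjusted p = 1.18e-08). Ntn5, a short netrin, was found mainly in the cortex, with 355, 270.2 and 245 normalized counts in WT cortex libraries B, C and D and 6.39, 1.22 and 4.66 in WT cerebellum libraries 2, 4 and 6. The last 3 values rest on 7, 1 and 4 reads, so their fold depends on the pseudocount. Ntng2, a lipid-anchored netrin G, was higher in the cortex (LFC 1.90, adjusted p = 2.69e-07). Slit1, a secreted repellent, led the Slits toward the cortex (LFC 2.60, adjusted p = 7.31e-06). Robo3, known from commissural axons, led the Robos (LFC 5.54, adjusted p = 2.52e-10), with 1605, 1243 and 963 normalized counts in WT cortex libraries B, C and D against 26.1 ± 5.19 (SD, n = 3) for the WT cerebella.

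**Figure D1:**
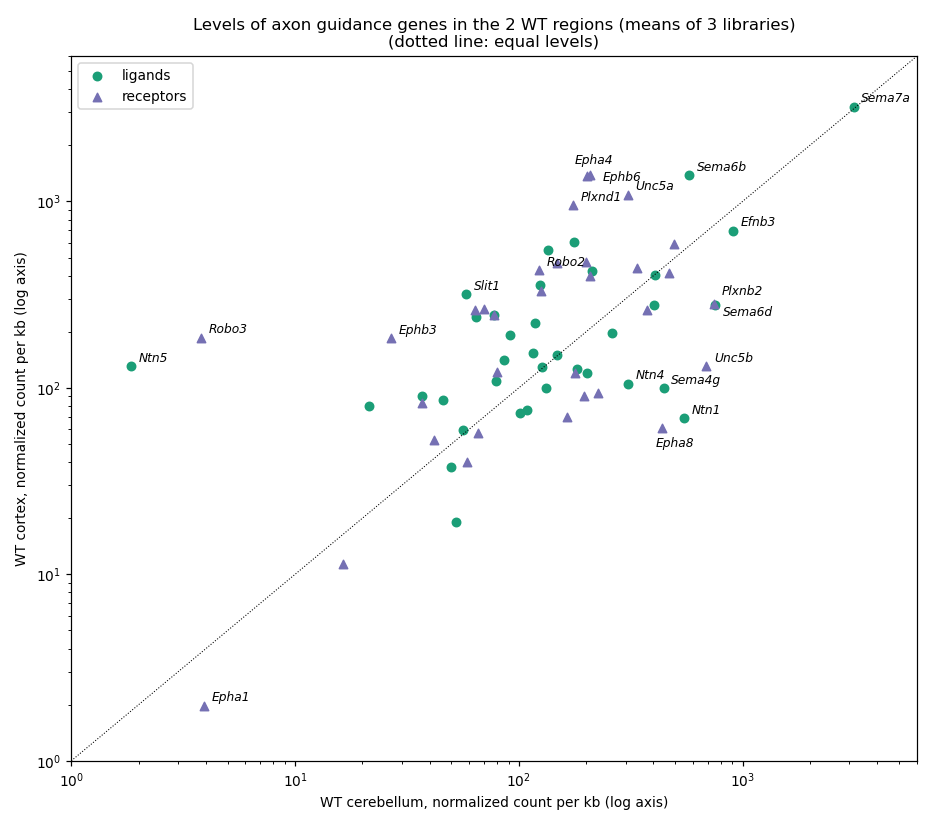
Levels of the 68 members in the WT brain, each point 1 gene, with normalized counts per kb of exon (means of 3 libraries, log axes) in the cerebellum on the x axis and in the cortex on the y axis, circles for ligands, triangles for receptors and a dotted line for equal levels. Sema7a lies at the top on the line, Robo3 and Ntn5 far above it, and Ntn1, Epha8, Unc5b and Sema4g below it.

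The 250 bases before the transcription start are shown for 4 members whose changes the results below turn on, so that their sequence can be read beside the values. Coordinates and sequence are from RefSeq on GRCm38.p6, where 58 of the 68 members had an entry. The windows are chr9:57939862-57940111 on the plus strand for Sema7a, chr6:115995006-115995255 on the minus strand for Plxnd1, chr7:45683772-45684021 on the plus strand for Ntn5 and chr4:28812881-28813130 on the plus strand for Epha7, each read 5′ to 3′ along its gene. Capitals mark every GC box (GGGCGG, searched on both strands), and Ntn5 has none.
Sema7a: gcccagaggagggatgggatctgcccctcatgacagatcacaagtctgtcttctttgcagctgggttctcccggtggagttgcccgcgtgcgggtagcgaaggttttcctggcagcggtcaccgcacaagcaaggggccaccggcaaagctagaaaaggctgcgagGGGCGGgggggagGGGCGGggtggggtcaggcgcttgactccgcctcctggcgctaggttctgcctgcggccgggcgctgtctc
Plxnd1: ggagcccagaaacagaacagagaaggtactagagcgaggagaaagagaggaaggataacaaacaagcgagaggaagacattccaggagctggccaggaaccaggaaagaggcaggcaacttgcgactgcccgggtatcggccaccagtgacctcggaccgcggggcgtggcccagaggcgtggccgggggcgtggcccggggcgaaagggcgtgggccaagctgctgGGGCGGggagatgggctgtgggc
Ntn5: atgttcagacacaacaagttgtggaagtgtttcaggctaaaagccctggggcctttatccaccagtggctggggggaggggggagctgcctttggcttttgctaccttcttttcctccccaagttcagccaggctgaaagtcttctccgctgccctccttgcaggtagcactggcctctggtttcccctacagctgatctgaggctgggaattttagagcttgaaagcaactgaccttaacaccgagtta
Epha7: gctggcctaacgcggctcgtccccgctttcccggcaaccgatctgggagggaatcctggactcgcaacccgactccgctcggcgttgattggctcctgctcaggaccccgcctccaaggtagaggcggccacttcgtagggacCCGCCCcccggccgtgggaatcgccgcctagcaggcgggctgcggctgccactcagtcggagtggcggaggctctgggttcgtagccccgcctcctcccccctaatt

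GC boxes stood in such windows of 74.1% of the 58 members, against 35.4% of all 27025 genes with an entry, and the median GC content was 64.2% against 52.4%. Those 27025 genes were not limited to the tested ones, whereas every member passed the minimum mean count, so the sets are unlike. Capicua, a repressor that binds ataxin-1, recognises the octamers TGAATGAA, TGAATGGA, TCAATGAA and TCAATGGA. Searched on both strands, they stood in 1 of the 58 members (Epha2) and in 3.71% of all genes, and in none of the 4 windows printed. A letter match is a description of the window only.

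In the cortex, 16 of the 68 members were lower in SCA1 KI mice (background 10.8% of all tested genes, members 23.5%) and 3 were higher (background 4.82%, members 4.41%), so that 27.9% were called in either direction against 15.6% of all genes. At an unadjusted p under 0.05, 29 members differed (background 30.5%, members 42.6%), and WT and SCA1 KI libraries did not overlap for 42.6% of the members and 30.9% of all genes. Of the ligands, 7 fell and 2 rose, and of the receptors, 9 fell and 1 rose. The median LFC was −0.17 over the members and −0.003 over all tested genes. Class 3 semaphorins, class A plexins, the other plexins, EphA receptors and Robo receptors each had 2 lower members. Class 5 and 6 semaphorins, class B ephrins, EphB receptors and Slits had no lower member in the main limma fit. DESeq2 also called Ephb1, Ephb3 and Slit2 lower, edgeR Ephb3, and a limma fit of the cortex alone Slit2. Of the 19 calls, 9 held in each of the 12 fits that left out 1 library. Without SCA1 KI cortex library A and WT cerebellum library 2 together, which were set aside only after their values were known, 13 members were lower and 9 were higher.

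**Figure D2:**
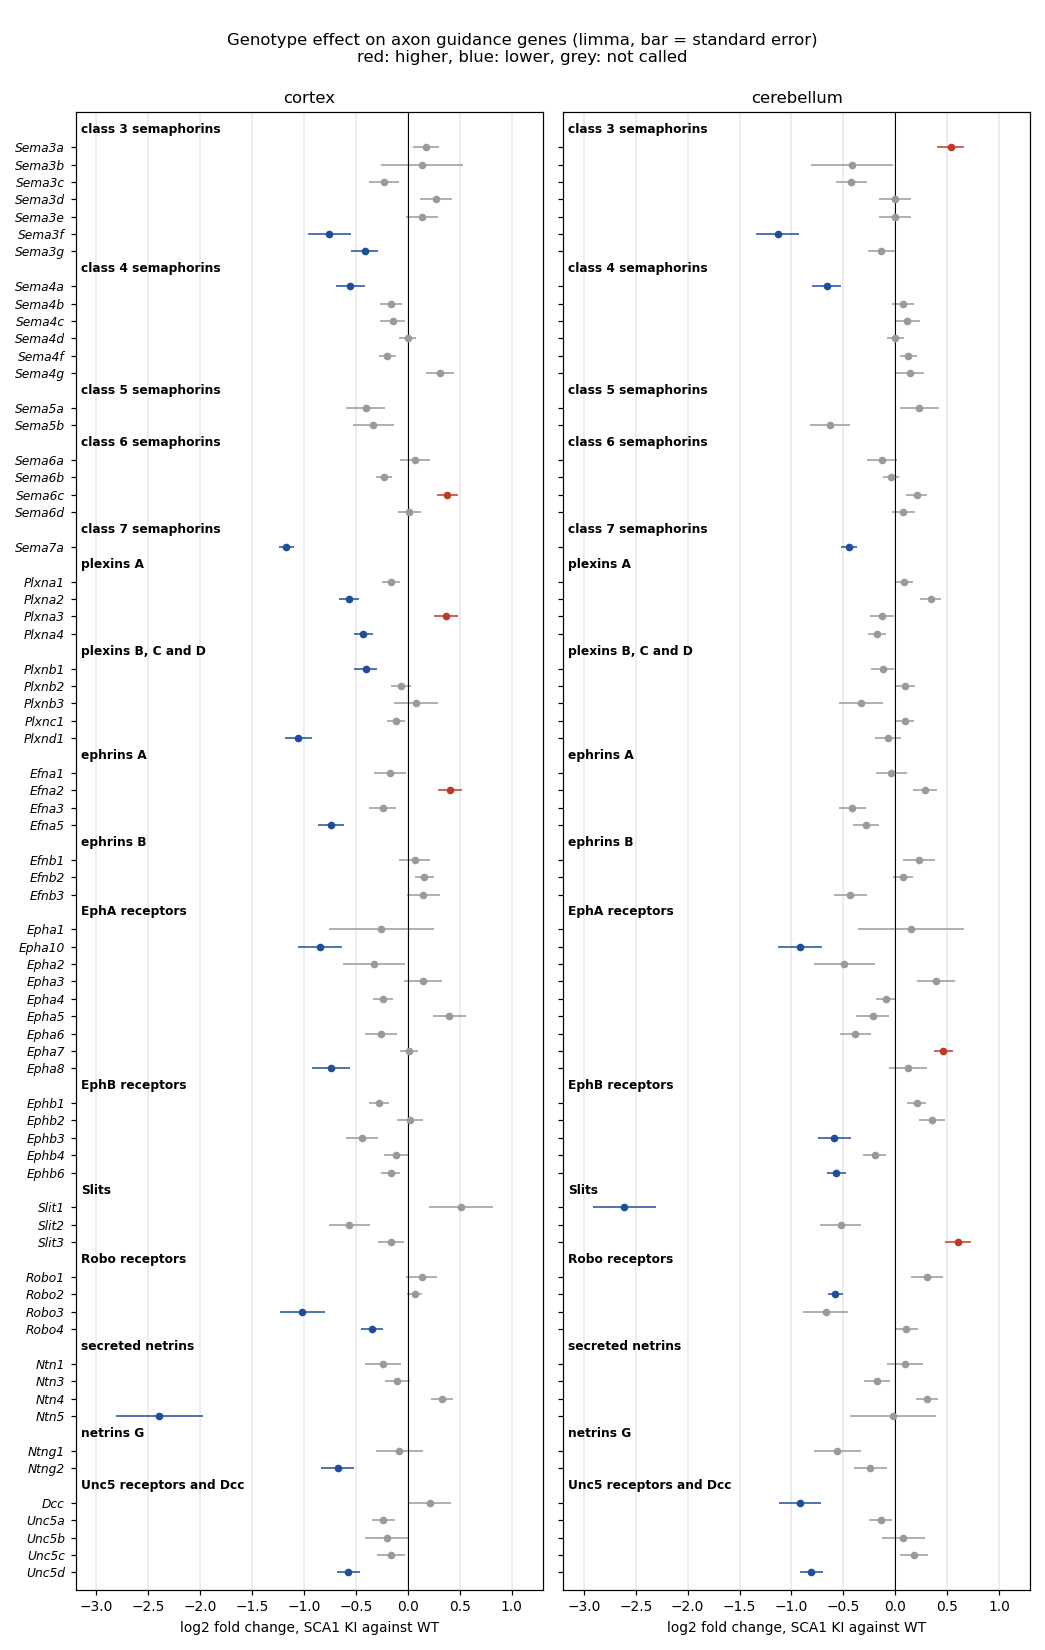
LFC of SCA1 KI against WT for each of the 68 members (rows, grouped by family) in the cortex (left) and the cerebellum (right), with the standard error from limma as a bar, red for called higher, blue for called lower and grey for not called. The cortical panel holds 16 lower and 3 higher members, the cerebellar panel 10 lower and 3 higher, and Slit1 in the cerebellum and Ntn5 in the cortex lie farthest to the left.

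**Figure D3:**
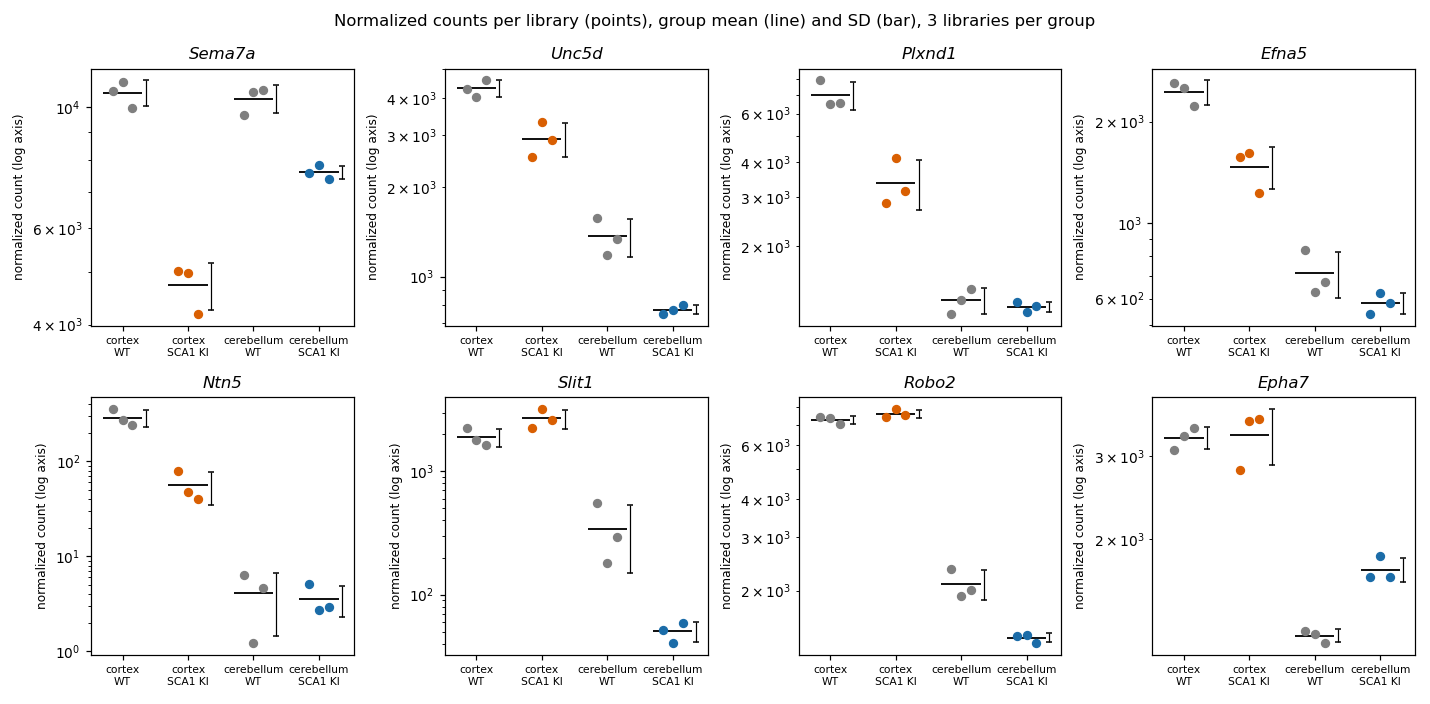
Normalized counts of 8 members in each of the 12 libraries (points, log axes), by region and genotype, with the group mean as a line and the SD of 3 libraries as a bar. Called lower in SCA1 KI are Sema7a and Unc5d in both regions, Plxnd1, Efna5 and Ntn5 in the cortex, and Slit1 and Robo2 in the cerebellum. Epha7 is called higher in the SCA1 KI cerebellum. Every cerebellar SCA1 KI library of Efna5 also lies below every WT library, without a call.

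Sema7a, a ligand of plexin C1 and integrins that promotes axon growth, had the smallest adjusted p of the members in the cortex. It lies at chr9:57940112-57962865 (GRCm38, plus strand) and counted 10707, 11115 and 9964 in WT libraries B, C and D and 5006, 4964 and 4181 in SCA1 KI libraries A, E and F. Every SCA1 KI library lay far below every WT library (LFC −1.17, SE 0.08, adjusted p = 2.46e-06). Per kb it stayed the highest member of the cortex in SCA1 KI mice, at 1430.3 ± 141 (SD, n = 3). Its plexin receptor gene Plxnc1 did not pass the test (LFC −0.11, SE 0.09, adjusted p = 0.406).

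Plxnd1, the receptor through which Sema3e repels axons and vessels, fell to a similar extent. Its counts were 7912, 6500.4 and 6525 in the WT libraries and 2855, 4157 and 3151 in the SCA1 KI libraries, with the highest SCA1 KI library (E) below the lowest WT library (LFC −1.05, SE 0.13, adjusted p = 0.000144). Without SCA1 KI library A, the lowest, it was still called (LFC −0.94, adjusted p = 0.000517). Its ligand gene Sema3e did not pass (LFC 0.13, adjusted p = 0.613).

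Efna5, a lipid-anchored ephrin known for topographic maps, counted 2605, 2513 and 2216 in WT and 1569, 1614 and 1229 in SCA1 KI libraries. All 3 SCA1 KI values lay under the WT range (LFC −0.74, SE 0.12, adjusted p = 0.00132), and library A was here one of the higher SCA1 KI libraries. In the cerebellum Efna5 did not pass (LFC −0.28, adjusted p = 0.253), though every SCA1 KI library lay below every WT library. The difference between the regions did not pass either (adjusted p = 0.145). In the cortex the other called ligand of this class, Efna2, went the other way, from 271, 283 and 272 to 411, 353 and 335 (LFC 0.41, SE 0.12, adjusted p = 0.0335). It was not called without any of 6 libraries, A among them (adjusted p up to 0.112), or in a fit of the cortex alone. Summed per kb, the 4 class A ephrins ranged from 1343 to 1369 in the WT cortex. In the SCA1 KI cortex they ranged from 932 to 1161, without overlap. This was not particular to the family. The cortical sums of EphA and EphB receptors, class A plexins, the other plexins, netrins, netrins G, and Unc5 receptors with Dcc did not overlap either. Those of class 3 to 6 semaphorins, class B ephrins, Slits and Robo receptors overlapped.

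Ntn5 had the lowest cortical LFC of the members. It counted 355, 270.2 and 245 in WT and 79.8, 47.6 and 40.5 in SCA1 KI libraries (LFC −2.40, SE 0.42, adjusted p = 0.00175), with the SCA1 KI library A the highest of its group. The gene (chr7:45684022-45694556, plus strand) shares 519 bases of exon with Sec1 on the opposite strand, which also fell (LFC −1.46, adjusted p = 0.0260) from 47.6 ± 16.4 to 16.6 ± 5.06 (SD, n = 3). Whether reads were counted by strand is not given in the sources used here, so reads of the shared stretch could belong to either gene. Ntng2, a ligand of the synaptic adhesion molecule Lrrc4, counted 965, 849 and 1059 in WT and 471, 699 and 643 in SCA1 KI libraries (LFC −0.68, SE 0.16, adjusted p = 0.0105). It shares 558 bases of exon with 6530402F18Rik on its own strand, whose LFC was −0.59 (adjusted p = 0.0206).

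The class A plexins, receptors of class 3 and class 6 semaphorins, moved both ways. Plxna2 counted 8927, 7324 and 8036 in WT and 4749, 6487 and 5229.5 in SCA1 KI libraries (LFC −0.57, SE 0.10, adjusted p = 0.00186). Plxna4 counted 6695, 5927 and 5864 and 3996, 5334 and 4479 (LFC −0.43, SE 0.09, adjusted p = 0.00528). Both were called without each library in turn, but Plxna4 was not called after correction for transcript length and GC (LFC −0.24, adjusted p = 0.00470), which put its LFC under the size limit. Plxna3 was higher in SCA1 KI mice, at 1070.3, 1274 and 1297 against 1064, 923 and 840.2 in WT (LFC 0.37, SE 0.12, adjusted p = 0.0446), and lost its call without any of 7 libraries (adjusted p up to 0.137) and in a fit of the cortex alone. Plxna1 did not pass (LFC −0.16, adjusted p = 0.210). Plxnb1, a receptor of Sema4d, was lower (LFC −0.41, adjusted p = 0.0231) and was not called without SCA1 KI library A, where its LFC fell short of the size limit (LFC −0.24, adjusted p = 0.0264), nor without WT library B or WT library D (adjusted p up to 0.0791). It was also lost after the same correction (LFC −0.19, adjusted p = 0.0671) and in a fit of the cortex alone.

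Unc5d, a netrin receptor that also binds Flrt2 and that marks upper cortical layers, counted 4302, 4045 and 4592 in WT and 2537, 3313 and 2884 in SCA1 KI libraries. The groups did not overlap (LFC −0.57, SE 0.11, adjusted p = 0.00307), and the call held without each library. Robo3 fell from 1605, 1243 and 963 to 467, 783 and 633 (LFC −1.02, SE 0.22, adjusted p = 0.00633), with library A again the lowest and an LFC of −0.82 without it (adjusted p = 0.0268). Robo4, an endothelial Robo, was a weaker call (LFC −0.35, adjusted p = 0.0408) that was lost without any of 9 libraries (adjusted p up to 0.128), with TMM factors, in a fit of the cortex alone and after length and GC correction. Robo1 and Robo2, the main axonal Slit receptors, did not pass (LFC 0.13, adjusted p = 0.601 and LFC 0.07, adjusted p = 0.577).

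Epha8 and the kinase-inactive receptor gene Epha10 were the Eph receptors called in the cortex in the main limma fit, both lower. Epha10 counted 2012, 1956 and 1732 in WT and 826, 1178 and 1206 in SCA1 KI libraries (LFC −0.85, SE 0.21, adjusted p = 0.0151) and was not called without SCA1 KI library A (LFC −0.67, adjusted p = 0.0590) or WT library C (adjusted p = 0.0534). Epha8 counted 227, 236 and 395 and 193, 148 and 159 (LFC −0.74, SE 0.18, adjusted p = 0.0145), with WT library D well above the other WT libraries, and was not called without SCA1 KI library E (adjusted p = 0.0515) or in a fit of the cortex alone. The other 12 Eph receptors ranged in LFC from −0.44 (Ephb3) to 0.40 (Epha5) and did not pass in the main limma fit.

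Of the semaphorins other than Sema7a, 3 were lower and 1 was higher. Sema4a counted 2027, 2096 and 1645 in WT and 1129, 1337 and 1457 in SCA1 KI libraries (LFC −0.56, SE 0.14, adjusted p = 0.0165) and was not called without SCA1 KI library A, WT library B or WT library C (adjusted p 0.0560 to 0.0717). Sema3f, a repellent that acts through neuropilin 2, counted 477, 373 and 339 and 190.2, 211 and 309.9 (LFC −0.76, SE 0.21, adjusted p = 0.0248) and was lost without libraries A, B, C or E (adjusted p 0.0574 to 0.0940). Sema3g, found in vessels, was lower (LFC −0.42, adjusted p = 0.0434) and was lost without any of 8 libraries (adjusted p up to 0.168) and under the same 3 alternatives as Robo4. Sema6c was higher in SCA1 KI mice, at 953, 909 and 1059 against 809, 747 and 685 in WT (LFC 0.38, SE 0.10, adjusted p = 0.0237), and was lost without WT library C, WT library D or SCA1 KI library F (adjusted p 0.0636 to 0.0832).

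Beside these calls, the summed level of 5 astrocyte markers was 104549 to 167275 normalized counts in the SCA1 KI cortex and 225220 to 238620 in the WT cortex, with 3 of the 5 lower and library A the lowest, and that of 5 markers of cortical excitatory neurons was 15858 to 19671 against 22037 to 23431, with 1 of the 5 lower. The 5 oligodendrocyte markers ranged from 77964 to 90175 against 72896 to 125999, with the highest value in WT library B, and none of them passed. Library B also had the highest summed striatal (8608), hippocampal (1618.5) and choroid plexus (1668) markers of the WT cortex. WT libraries C and D had 3964 and 4101, 772 and 786, and 198 and 217. In the SCA1 KI cortex these sums ranged from 3696 to 5605, 530 to 1041 and 215 to 332, and none of these markers passed. None of the endothelial or microglial markers passed. The 5 Purkinje cell markers summed to 2607 to 3528 in the SCA1 KI cortex, lowest in library A, and 5002 to 5705 in the WT cortex, with 2 lower and 1 higher. The 4 thalamic markers tested summed to 808 to 909 against 1100.4 to 1211, again lowest in library A, with 1 lower. The part of these cell types in the results was not tested.

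In the cerebellum, 10 of the 68 members were lower in SCA1 KI mice (background 4.44% of all tested genes, members 14.7%) and 3 were higher (background 0.917%, members 4.41%), so that 19.1% were called in either direction against 5.36% of all genes. At an unadjusted p under 0.05, 28 members differed (background 17.3%, members 41.2%), and WT and SCA1 KI libraries did not overlap for 52.9% of the members and 31.8% of all genes. Of the ligands, 4 fell and 2 rose, and of the receptors, 6 fell and 1 rose. The median LFC was −0.06 over the members and −0.005 over all tested genes. In the main limma fit no ephrin, plexin or netrin was called. DESeq2 also called Efna3, Plxna2 and Sema5b, and the length and GC correction Plxna2. A limma fit of the cerebellum alone also called Ntng1, Plxna2, Sema3c and Sema5b. The calls of the main fit lay among the semaphorins, Slits, Robos, Eph receptors, Unc5d and Dcc. Of the 13 calls, 6 held without each library in turn. Without WT cerebellum library 2 and SCA1 KI cortex library A together, the counts were again 10 lower and 3 higher.

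Slit1 had the lowest LFC. It lies at chr19:41600257-41743665 (GRCm38, minus strand) and counted 558, 179.6 and 292 in WT libraries 2, 4 and 6 and 51.4, 40.5 and 59.1 in SCA1 KI libraries 1, 3 and 5. The WT libraries differed among themselves by over 3-fold, yet the lowest lay above the highest SCA1 KI library (LFC −2.61, SE 0.31, adjusted p = 0.000313). Without WT library 2 the change was smaller and still called (LFC −2.18, adjusted p = 0.000164). Slit3, another secreted Slit, went up, from 450.1, 489 and 478 in WT to 797, 696 and 669.9 in SCA1 KI libraries (LFC 0.61, SE 0.13, adjusted p = 0.0142), and was not called without SCA1 KI library 1 or WT library 2 (adjusted p 0.0520 to 0.0765). Slit2 did not pass (LFC −0.52, adjusted p = 0.172). Summed per kb, the 3 Slits overlapped, at 129.8 to 196 in WT and 136 to 151 in SCA1 KI libraries.

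Robo2, a Slit receptor, was lower together with Slit1 in these libraries. It counted 2361, 1919 and 2015 in WT and 1419.6, 1436 and 1348 in SCA1 KI libraries, without overlap (LFC −0.58, SE 0.07, adjusted p = 0.000451), and remained called without WT library 2 (LFC −0.49, adjusted p = 0.000594). Robo1 (LFC 0.31, adjusted p = 0.323), Robo3 (LFC −0.67, adjusted p = 0.109) and Robo4 (LFC 0.11, adjusted p = 0.688) did not pass.

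Of the netrin receptors, Unc5d counted 1578, 1179 and 1342 in WT and 748, 774 and 802 in SCA1 KI libraries (LFC −0.81, SE 0.11, adjusted p = 0.000887) and was called in each fit that left out a library. Dcc, the attractive netrin receptor, counted 618, 346 and 499 in WT and 254, 258 and 239 in SCA1 KI libraries (LFC −0.92, SE 0.20, adjusted p = 0.0174). The SCA1 KI libraries of Dcc were close together and the WT libraries were not. It was not called without WT library 2 (LFC −0.73, adjusted p = 0.0697), WT library 6 or any of the 3 SCA1 KI libraries (adjusted p 0.0555 to 0.0697). Unc5b, the Unc5 gene with the highest level per kb of exon in the WT cerebellum, did not pass (LFC 0.08, adjusted p = 0.902), nor did Unc5c (LFC 0.18, adjusted p = 0.576).

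Among the Eph receptors, Epha7 rose and Ephb6, Ephb3 and Epha10 fell. Epha7, a receptor of class A ephrins, counted 1280.00, 1261 and 1204 in WT and 1665, 1840.1 and 1663 in SCA1 KI libraries (LFC 0.46, SE 0.09, adjusted p = 0.00951), with a narrow spread in both groups, and was lost only without SCA1 KI library 3 (adjusted p = 0.0529). Ephb6 counted 914, 719 and 722 and 499.6, 538 and 543 (LFC −0.57, SE 0.09, adjusted p = 0.00348) and held without each library. Epha10 counted 706, 348 and 465 and 279, 229 and 262 (LFC −0.92, SE 0.21, adjusted p = 0.0226). It was not called without WT library 2 (LFC −0.65, adjusted p = 0.0601), WT library 6 or any SCA1 KI library (adjusted p up to 0.0988), or in a fit of the cerebellum alone. Ephb3 was a borderline call (LFC −0.59, adjusted p = 0.0480), lost without any of 8 libraries (adjusted p up to 0.190), with edgeR, with median centring, with no filter on the mean, with a pseudocount of 5 and in a fit of the cerebellum alone.

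Of the semaphorins, Sema7a counted 9649, 10655 and 10729 in WT and 7567, 7816 and 7395 in SCA1 KI libraries (LFC −0.44, SE 0.08, adjusted p = 0.00391), here with WT library 2 the lowest of its group. Sema3f counted 684, 458 and 549.8 and 257, 207 and 305 (LFC −1.13, SE 0.21, adjusted p = 0.00678). Both held without each library. Sema4a counted 824, 545 and 649 and 409, 419 and 428 (LFC −0.66, SE 0.14, adjusted p = 0.0158) and was not called without WT library 2, SCA1 KI library 1 or SCA1 KI library 3 (adjusted p 0.0520 to 0.0669). Sema3a, the classic repellent that acts through neuropilin 1, was higher in SCA1 KI mice, at 1615, 1927 and 1637 against 1058, 1297 and 1216 in WT (LFC 0.54, SE 0.13, adjusted p = 0.0293), and was lost without WT libraries 2 or 6 or any SCA1 KI library (adjusted p 0.0655 to 0.134).

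The summed midbrain markers were 853 in WT library 2, 577 in WT library 6 and 405.5 in WT library 4. Of the 10 lower members, 9 stood in the same order in the WT libraries, 2 above 6 above 4. The exception was Sema7a, which was lowest in WT library 2. Over all 68 members, library 2 was the highest WT library for 39 and library 4 the lowest for 38. The full order was not counted over all 68 members or over all tested genes, so the 9 of 10 has no background beside it. WT libraries 4 and 6 lay above every SCA1 KI library for the markers and for the lower members, Sema7a included. The lower members were called for that difference, so their separation is no separate result. The 5 oligodendrocyte markers summed to 163466 to 250154 in WT, highest in library 2, and to 139174 to 139535 in SCA1 KI libraries, with none of the 5 called. Purkinje cell markers summed to 152591 to 189536 in WT and 125815 to 140216 in SCA1 KI libraries, with 1 of 5 lower. Astrocyte markers summed to 94280 to 113905 in WT and 79954 to 83873 in SCA1 KI libraries, with 1 of 5 lower. Granule cell markers summed to 102751 to 143056 in WT and 141016 to 144419 in SCA1 KI libraries and none passed. Choroid plexus markers ranged from 19754 to 72241 in WT and from 1319 to 75448 in SCA1 KI libraries, with library 1 the lowest, and none passed. The 4 thalamic markers tested summed to 3448 to 3582 in WT and 2904 to 3021 in SCA1 KI libraries, with 2 lower, and microglial markers to 2576 to 3565 and 2354 to 2480.4, with 1 of 5 lower. How far neighbouring tissue or any of these cell types entered the results was not tested.

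**Figure D4:**
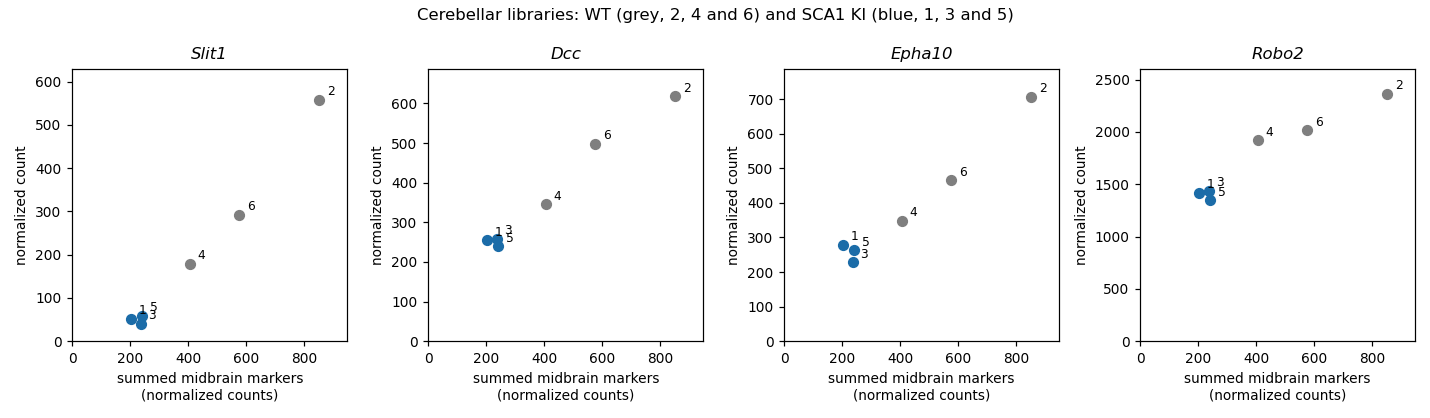
Normalized counts of Slit1, Dcc, Epha10 and Robo2 (y axes, from 0) against the summed normalized counts of 5 midbrain markers (x axis) in the 6 cerebellar libraries, with WT libraries 2, 4 and 6 in grey and SCA1 KI libraries 1, 3 and 5 in blue. WT library 2 is the highest on both axes in each panel and the 3 SCA1 KI libraries cluster at 203 to 242 on the x axis. The 4 genes drawn are among the 9 lower members with the WT order 2, 6, 4. Sema7a, the exception, is not drawn.

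Both regions together held 27 members called in at least 1 genotype comparison and 41 called in neither. Lower in both were 5 members (Epha10, Sema3f, Sema4a, Sema7a and Unc5d), which is 31.2% of the lower cortical members and 50% of the lower cerebellar members. Over all tested genes, 196 were lower in both, or 11.8% of the lower cortical and 28.7% of the lower cerebellar genes. No member was higher in both or moved in opposite directions with both calls, but only 3 members were higher in each region. Over all tested genes, 22 were higher in both (2.97% of the higher cortical genes). Opposite directions were called for 29 genes higher in the cortex (3.91% of that list) and 27 lower there (1.63%). For Unc5d the LFC was −0.57 in the cortex and −0.81 in the cerebellum, for Epha10 −0.85 and −0.92, for Sema3f −0.76 and −1.13, and for Sema4a −0.56 and −0.66. The difference between the regions did not pass for these 4 members (adjusted p = 0.428, 0.917, 0.521 and 0.816), which does not show that the effects are alike.

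The genotype effect differed between the regions for 10 members (background 8.15% of all tested genes, members 14.7%; at an unadjusted p under 0.05, 27.9% of the members and 21.4% of all genes), tested as the cortical minus the cerebellar LFC. The cortical LFC was the lower one in 7 of them (background 4.89%) and the cerebellar LFC in 3 (background 3.26%). Sema7a fell in both regions and more in the cortex (difference −0.73, SE 0.11, adjusted p = 0.00145). Plxnd1 (−0.98, adjusted p = 0.00513) and Plxna2 (−0.91, adjusted p = 0.00203) fell in the cortex, while their cerebellar LFCs were −0.07 and 0.34 and did not pass. Slit1 (3.12, adjusted p = 0.00116) and Robo2 (0.64, adjusted p = 0.00221) fell in the cerebellum, with cortical LFCs of 0.51 and 0.07 that did not pass. These 5 differences were called without each library in turn. The other 5 were each lost without at least 1 library. They were Slit3 (−0.77, adjusted p = 0.0194), Ntn5 (−2.37, adjusted p = 0.0261), Dcc (1.13, adjusted p = 0.0276), Ephb1 (−0.48, adjusted p = 0.0435) and Epha7 (−0.45, adjusted p = 0.0471). Ephb1, a receptor called in neither region on its own, counted 2141, 1706 and 1620.1 in WT and 1391, 1549 and 1545 in SCA1 KI cortices (LFC −0.28, adjusted p = 0.0629) and 2800.1, 2465 and 2602 in WT and 3142, 2974 and 2952 in SCA1 KI cerebella (LFC 0.21, adjusted p = 0.285).

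In the cortex Slit1 counted 2236, 1781 and 1639 in WT and 2265, 3194 and 2620.2 in SCA1 KI libraries, so every SCA1 KI value lay above the WT range, though the gene did not pass (adjusted p = 0.291). Plxnd1 counted 1138, 1284 and 1405 in the WT cerebellum and 1256, 1154 and 1221 in the SCA1 KI cerebellum, with overlap. The WT cortical and WT cerebellar libraries enter both the region comparison and the genotype comparisons, so the region LFCs given above are not independent of these values.

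**Figure D5:**
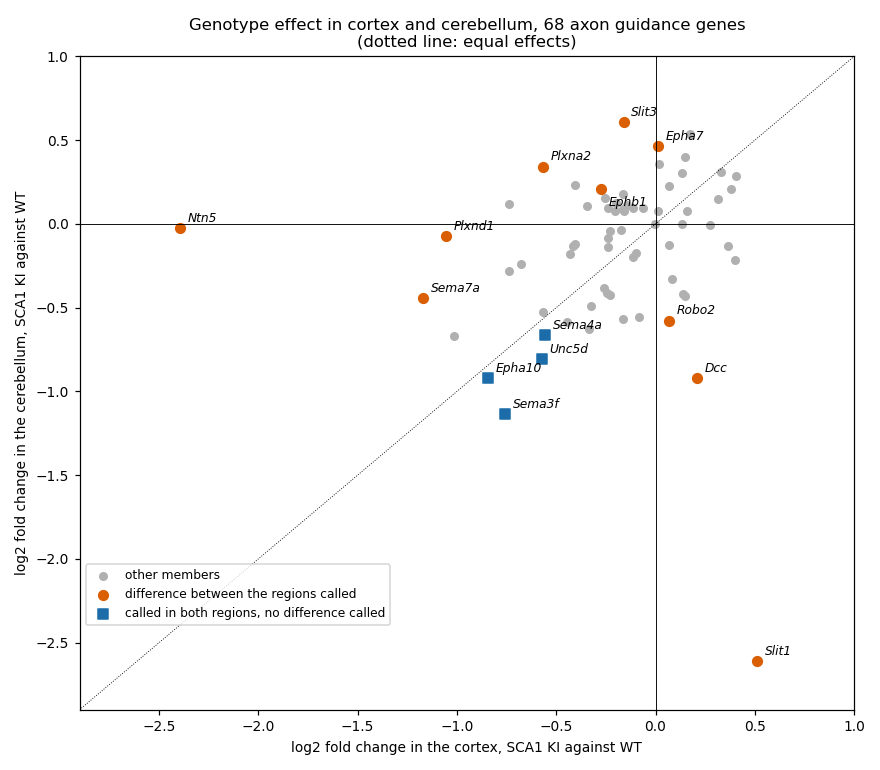
LFC of SCA1 KI against WT in the cortex (x axis) and the cerebellum (y axis) for the 68 members, with orange circles for the 10 whose effect differed between the regions, blue squares for 4 lower in both regions without a called difference, grey points for the others and a dotted line for equal effects. Slit1 lies at the bottom right of the line and Ntn5, Plxnd1 and Sema7a at its left.

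The 41 members called in neither region were spread over most families. All 3 class B ephrins (LFC 0.07 to 0.16 in the cortex and −0.43 to 0.23 in the cerebellum) and both class 5 semaphorins (−0.41 to −0.33 and −0.63 to 0.23) were among them. The remaining netrins Ntn1, Ntn3 and Ntn4 had cortical LFCs of −0.24, −0.10 and 0.33 and cerebellar LFCs of 0.10, −0.17 and 0.31. For Ntn4 the cortical WT and SCA1 KI libraries did not overlap (limma adjusted p = 0.0568). It was called higher in the cortex with edgeR, DESeq2, TMM factors and the length and GC correction. The same held without WT cerebellum library 2 or SCA1 KI cortex library E. Plxnb2 and Plxnb3 had −0.06 and 0.08 in the cortex and 0.10 and −0.33 in the cerebellum. Among the EphA receptors, Epha4, the one with the highest level per kb in the WT cortex, had an LFC of −0.24 there (adjusted p = 0.115) and a cerebellar LFC of −0.09 (adjusted p = 0.737). Without SCA1 KI cortex library A, Epha4 was called lower in the cortex (LFC −0.32, adjusted p = 0.0489). Called higher in that fit were Efnb2 (LFC 0.29, adjusted p = 0.00400) and Epha5 (LFC 0.55, adjusted p = 0.0356). A call missed at 3 libraries a group does not show that a member was unaltered.

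Genes that work beside the members were counted from 3 lists taken from the textbook parts of the pathways. The lists were chosen with earlier results of these data known, so their shares beside the background are a description only. Of 12 co-receptors and partners, 5 were lower (41.7%, background 10.8%) and 1 was higher (8.33%, background 4.82%) in the SCA1 KI cortex. In the cerebellum none was called in the main limma fit, and DESeq2 called 1. The lower ones were Lrrc4 (LFC −0.50, SE 0.08, adjusted p = 0.00108) and Lrrc4c (LFC −0.46, SE 0.09, adjusted p = 0.00313), the synaptic partners of netrins G2 and G1, and the receptor phosphatase genes Ptprd (LFC −0.42, SE 0.07, adjusted p = 0.00112), Ptprs and Ptprf. Chl1, an adhesion molecule that works with neuropilins, was higher (LFC 0.36, SE 0.08, adjusted p = 0.00742). In the same cortices Ntng2 was lower, as given above, and Ntng1 did not pass (LFC −0.08, adjusted p = 0.841). The sign for Ntng1 depended on SCA1 KI cortex library A, without which its LFC was 0.29 (adjusted p = 0.0534). Without that library and WT cerebellum library 2 together, Ntng1 was called higher (LFC 0.29, adjusted p = 0.0332).

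Of 10 other guidance cues, 4 were lower in the SCA1 KI cortex (40%, background 10.8%), namely Nell1, Flrt1, Flrt2 and Cxcl12. Nell1, a secreted relative of the Robo3 ligand Nell2, had an LFC of −1.17 there (adjusted p = 2.28e-05) and was the 1 cue lower in the cerebellum (LFC −0.71, SE 0.11, adjusted p = 0.00207). Flrt2, a ligand of Unc5d, was lower in the cortex (LFC −0.51, SE 0.11, adjusted p = 0.00523), and Flrt3 was higher in the cerebellum (LFC 0.33, SE 0.07, adjusted p = 0.0147).

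Of 32 intracellular effectors, 6 were lower (18.8%, background 10.8%) and 3 were higher (9.38%, background 4.82%) in the SCA1 KI cortex. In the cerebellum 2 were lower (6.25%, background 4.44%) and 1 was higher (3.12%, background 0.917%), the former near the background. Ngef, an exchange factor that links EphA receptors to the cytoskeleton, was lower in the cortex (LFC −0.84, SE 0.12, adjusted p = 0.000497) and the cerebellum (LFC −1.53, SE 0.12, adjusted p = 1.67e-05). Chn1, a Rac regulator downstream of Epha4, was lower in both as well (LFC −0.72, SE 0.08, adjusted p = 6.11e-05 and LFC −0.62, SE 0.08, adjusted p = 0.000457). Mical2, an actin oxidase downstream of plexins, was lower in the cortex (LFC −0.70, SE 0.15, adjusted p = 0.00594), with its relative Mical3, the exchange factor gene Farp1 and Srgap3, whose protein binds Robo. Higher there were Dpysl3 (LFC 0.74, SE 0.13, adjusted p = 0.00234), Dpysl5 (LFC 0.67, SE 0.11, adjusted p = 0.000854) and Gap43 (LFC 0.51, SE 0.07, adjusted p = 0.000254), growth cone proteins, while Dpysl4 was higher in the cerebellum (LFC 0.55, SE 0.10, adjusted p = 0.00693).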

How the data were processed

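Whole cortex and cerebellum of SCA1 KI and WT mice were profiled by RNA-seq, with 3 libraries in each of 4 groups. Paired 75 bp reads were aligned by the authors with STAR to mm10 and counted per gene with featureCounts (submitters' processing notes; versions not given in the sources used here). The deposited values are a signal: reads per gene divided by 1 DESeq2 size factor per library. Within a tolerance of 0.01 read, 100% of values were whole reads once multiplied back, and depth was read from these.

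All 15369 genes that averaged 10 or more were fitted together with limma 3.58.1 (R 4.3.3) on log2(normalized count + 1), with 1 mean per group, an empirical Bayes trend and Benjamini-Hochberg adjustment over all of them. Fold changes are on that scale. The genotype contrasts, their difference and the WT region contrast come from this fit. Count tests (edgeR 4.0.16 and DESeq2 1.42.0 on recovered reads) were alternatives, and the scripts were tested on simulated data. Levels between genes are per kb of the merged exons in the mouse annotation, where all 68 members matched. Exons of 17 members overlap those of another gene, on the same strand for 4.

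Members, marker lists and pathway lists were chosen with earlier results of these data known. By rule, every called member is named with its statistics, those with the smallest p in each direction with library values, per family the member with the widest called region difference each way, and the others by counts and ranges. Library values of further called members were added after their values were seen. Column names give region and genotype but not the labels' replicate numbers.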

Additional observations from a re-analysis of the deposited data

Results flagged for a closer look

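For 10 members the genotype effect differed between the regions, tested as the cortical minus the cerebellar LFC with limma. The difference was 3.12 for Slit1, 1.13 for Dcc and 0.64 for Robo2, where the SCA1 KI cerebellum was the lower side. It was −2.37 for Ntn5, −0.98 for Plxnd1, −0.91 for Plxna2, −0.77 for Slit3, −0.73 for Sema7a, −0.48 for Ephb1 and −0.45 for Epha7, where the cortical LFC was the lower one. Ntn5 rests on 1 to 7 reads per library in the cerebellum, so its difference depends on the pseudocount. Slit3 and Epha7 were called higher in the cerebellum and had cortical LFCs that did not pass.

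Those of Slit1, Sema7a, Plxna2, Robo2 and Plxnd1 were called without each library in turn. Slit3 was not called without SCA1 KI cerebellum library 1 or WT cortex library C (adjusted p 0.0507 to 0.0597). Ntn5 was lost without any of 5 libraries (adjusted p 0.0534 to 0.0728), Dcc without any of 9 (0.0535 to 0.0633), WT cerebellum library 2 among them, Epha7 without any of 8 (0.0660 to 0.126) and Ephb1 without any of 10 (0.0508 to 0.115). With edgeR, Ntn5 and Epha7 were not called. In groups of 3 libraries no single library was tested for standing apart.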

How the results depend on the processing

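The counts of called members depended most on the size limit and on single libraries. In the cortex 3 members were higher and 16 lower. With an absolute LFC over 1 these became 0 and 4, with each region fitted on its own 1 was higher, after correction for length and GC 5 were, and without SCA1 KI cortex library A and WT cerebellum library 2 there were 9. Leave-one-out counts ranged from 0 to 5 higher and 11 to 18 lower. In the cerebellum the 3 higher and 10 lower became 0 and 2 at the larger size limit, with leave-one-out ranges of 1 to 4 and 6 to 13. Differences between the regions (3 with the higher, 7 with the lower LFC in the cortex) became 5 higher after length and GC correction and 6 with DESeq2 or without the 2 libraries, and 1 lower at the larger limit, with leave-one-out ranges of 2 to 6 and 3 to 7. In the WT region comparison, 11 in place of 22 were lower at the larger limit, and leave-one-out counts were 33 to 36 higher and 16 to 23 lower.

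Of the co-receptors in the cortex, the 1 higher became 2 without the 2 libraries and 0 at the larger limit, and the 5 lower became 3 with each region alone or after length and GC correction and 0 at the larger limit (leave-one-out 3 to 6). In the cerebellum 0 became 1 higher with median centring, length and GC correction, DESeq2 or without the 2 libraries (leave-one-out 0 to 1 in both directions). Of the other cues, 4 lower in the cortex became 1 at the larger limit (leave-one-out 4 to 5), and the 1 higher and 1 lower of the cerebellum became 0 (leave-one-out 0 to 1 higher). Of the effectors in the cortex, 3 higher and 6 lower became 0 and 0 at the larger limit (leave-one-out 3 to 4 and 4 to 7). In the cerebellum the 1 higher became 3 with centring or length and GC correction, 2 with DESeq2 or no size limit and 0 at the larger limit (leave-one-out 1 to 2), and the 2 lower became 4 with each region alone and 1 at the larger limit. Apart from the size limit and the libraries left out, the cause was not tested.

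No called member changed direction under any alternative. Pseudocounts of 0.5 and 5, other filters on the mean, TMM factors and edgeR moved each member count by less than 1.5 times, as did DESeq2 for the members within each region but not for the difference between the regions, and DESeq2 kept all 19 cortical and 13 cerebellar calls. No paired analysis was possible because the columns carry letters or numbers of their own and not the labels' replicate numbers. Depth limits only low members, such as Ntn5 in the cerebellum.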
